A study of Mus musculus with 44 samples.

Results

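Adult mouse cortex was set against neurons of the same region grown in a dish. The comparison took 6 of the 44 libraries of the study, chosen by their labels: RNA-seq, ribosome profiling and TAIL-seq of adult cortex, and the same assays of an unstimulated primary cortical culture harvested at 14 days in vitro (DIV14), with 1 library per group and assay. The adult cortex came from 1 male C57BL6J mouse and was flash frozen and lysed whole, so neurons, glia, vessels and blood were measured together. The culture was made from the cortices of newborn male and female pups pooled over litters, and was treated for a day with cytarabine (AraC), which kills dividing cells. It served in the study as the control of a BDNF-treated and a glutamate and glycine (glu/gly) treated culture. Total RNA of both samples was depleted of rRNA rather than selected for poly(A). The groups differ in age, in growth in the animal or in a dish and in the cells they hold, and these cannot be told apart.

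Ribosome-protected fragments (RPFs) report how many ribosomes sit on the coding sequences (CDSs) of a gene, RNA-seq and TAIL-seq tags report how much of its mRNA is present, and RPFs over RNA-seq reads give the translational efficiency (TE). In the cortex neurons extend axons and form synapses over the first postnatal weeks, while growth-cone and tubulin genes are turned down and receptors, channels and release proteins are turned up. Most oligodendrocytes mature and wrap axons in myelin after birth, and microglia and endothelial cells enter from outside the neural lineage. Dissociated cultures lack blood flow and start from what the newborn cortex holds. Poly(A) tails are added in the nucleus and shorten with the age of an mRNA in the cytoplasm.

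The RNA-seq libraries held 1709163 reads on genes in the cortex and 508771 in the culture, the RPF libraries 7498926 and 4337282, and the TAIL-seq libraries 599907 and 1042761 tags. All levels below are in RPM, here the reads, RPFs or tags per 1000000 of those on genes, and all differences are log2 ratios of cortex over culture with the 95% interval that the counts alone allow. With 1 library a side there is no replicate and no p-value, and the intervals leave out the variation between animals and dishes. As a partial scale for that variation, the range over 4 DIV14 cultures is given: the unstimulated, BDNF and glu/gly cultures and a culture transduced with GFP, which also differ in treatment. The study prepared its DIV14 cultures in 2 batches, each from shared litters, so the 4 are not independent of one another. Which of them shared a batch is not stated. Adult hippocampus of the study, whose RNA was selected for poly(A), is given as a second adult tissue where named. A gene is called when the ratio is 2-fold or more, or when mean tails differ by 20 nucleotides (nt) or more. RNA-seq, RPF and TE were compared for the 4087 genes of 14446 with reads that reached 10 RPM as deposited in both RNA-seq files, which is 24 reads in the culture and 71 in the cortex (1 had no RPFs in a library). Tails and tag levels were compared for the 2663 genes with 50 tags or more in both.

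Markers of oligodendrocytes and microglia were far higher in the cortex, and those of vessels were higher in sum. Summed RPFs of 16 oligodendrocyte and myelin genes stood at 6635 RPM in the cortex and at 225 in the culture (192 to 235 over the 4 cultures), and each of the 16 lay above all 4 cultures. The share of all genes that lay above or below all 4 cultures was not counted. For scale, 76 of 362 numbered Zfp zinc-finger genes lay above and 99 below them in RPFs. Of 78 mitochondrial ribosomal protein genes, 32 lay above and 11 below. Mbp, which compacts the myelin sheath, gave 772 RPM in the cortex and 10.4 in the culture (7.11 to 10.4 over the 4 cultures) in RPFs. In RNA-seq, 9 of the 16 genes had no read in the culture, among them Mbp and Mag. Summed RPFs of 14 microglia genes were 893 RPM against 65, again with every gene above all 4 cultures. Cx3cr1, the fractalkine receptor of microglia, had 41.2 in the cortex and 0.922 in the culture. Endothelial and pericyte genes summed to 266 against 79.3, with 10 of 11 above all 4 cultures and 1 below them. Cldn5, the tight-junction protein of brain vessels, was at 0 RPFs in the unstimulated culture. Only 4 of the 11 had 20 RPFs or more in both libraries, of which 2 were 2-fold higher and 1 was 2-fold lower. Of all 10448 genes at that depth, 6.95% were higher and 9.99% lower. In bulk samples fewer cells of a type and less RNA per cell cannot be told apart.

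Markers of neurons and astrocytes were high on both sides, in other proportions. Summed RPFs of 11 excitatory neuron genes were 6357 RPM in the cortex and 1971 in the culture, and 10 of the 11 exceeded all 4 cultures. The 13 inhibitory neuron genes went the other way in sum, with 3052 against 5018, and 9 lay under all 4 cultures. Gad1, which makes GABA, gave 616 RPM in the cortex and 1033 in the culture (1033 to 1703 over the 4 cultures) in RPFs. Pvalb, the calcium buffer of fast-spiking interneurons that appear late, went against the sum at 114 RPM in the cortex and 3.23 in the culture (2.84 to 4.87 over the 4 cultures). Sst and Npy, peptides of other interneurons, also exceeded all 4 cultures. Astrocyte genes summed to 12115 against 6931, but the list was split, with 10 of 16 genes above and 4 below all 4 cultures. Slc1a2, the glutamate transporter of mature astrocytes, stood at 3285 RPM in the cortex and 367 in the culture (367 to 481 over the 4 cultures), while Gfap, the intermediate filament of reactive astrocytes, was at 122 RPM in the cortex and 287 in the culture (123 to 287 over the 4 cultures) and Aqp4, the water channel of astrocyte endfeet, at 98.8 RPM in the cortex and 113 in the culture (78.7 to 113 over the 4 cultures). The cortex value of Gfap was thus just under the lowest culture, and Aqp4 fell inside the culture range. The lower sum of the fibroblast and meningeal list came from Vim and Igfbp2, since Col1a1 and Col1a2, collagens of fibroblasts, were higher in the cortex (289.9 against 34.4 and 232 against 27.4). The plot of summed marker RPFs shows the split by list.

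**Figure D1:**
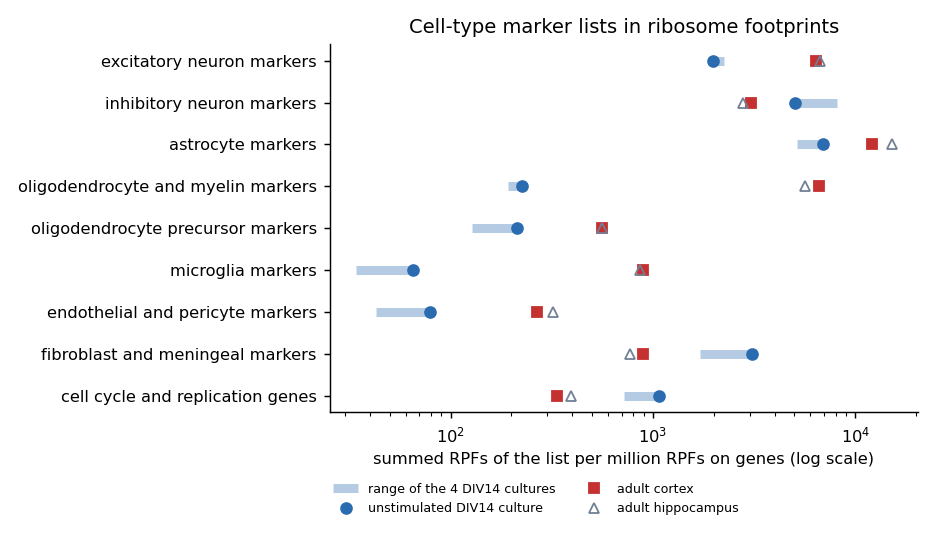
Summed RPFs in RPM for 9 lists of cell-type or proliferation genes (log axis); squares are adult cortex, filled circles the unstimulated DIV14 culture, bars the range over 4 DIV14 cultures and triangles adult hippocampus. Cortex lies above the cultures for excitatory, astrocyte, oligodendrocyte, oligodendrocyte precursor, microglia and vessel lists and below them for inhibitory, fibroblast and cell cycle lists, and adult hippocampus lies on the same side of the cultures as the cortex in each list.

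Between the groups, 467 genes (11.4%) were 2-fold or more higher in cortex RNA-seq and 535 (13.1%) lower, out of 4087. RPFs differed less. There, 200 genes (4.89%) were higher and 241 (5.9%) lower. Tags, counted at the 3′ end, had 249 genes (9.35%) higher and 87 (3.27%) lower of 2663. The median gene was at -0.21 in RNA-seq, -0.08 in RPFs and 0.06 in tags, and scaling by the median of ratios turned the RNA-seq calls into 638 higher and 293 lower. The GFP and the unstimulated culture differed in far fewer genes. Between the GFP and the unstimulated culture, RNA-seq called 0.28% of genes higher and 0.56% lower, and RPFs 0.163% and 0.327%. Against each of the 4 cultures, 221 genes remained 2-fold higher and 197 lower in RNA-seq, and 124 and 166 in RPFs.

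The 3 assays agreed only in part on which genes these were. Of the genes 2-fold higher in RNA-seq, 115 of 467 were 2-fold higher in RPFs and 130 were below 0. Of those lower in RNA-seq, 110 of 535 were 2-fold lower in RPFs and 64 were above 0. Of the genes with more RPFs, 115 of 200 were 2-fold higher in RNA-seq and 190 had an RNA-seq difference above 0. Of those with fewer RPFs, 110 of 241 were 2-fold lower in RNA-seq and 203 were below 0. Across genes, as a description, Spearman's rho was 0.43 between the RNA-seq and RPF differences (4086 genes), 0.64 between RNA-seq and tags (2004 genes) and 0.63 between RPFs and tags (2003 genes).

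**Figure D2:**
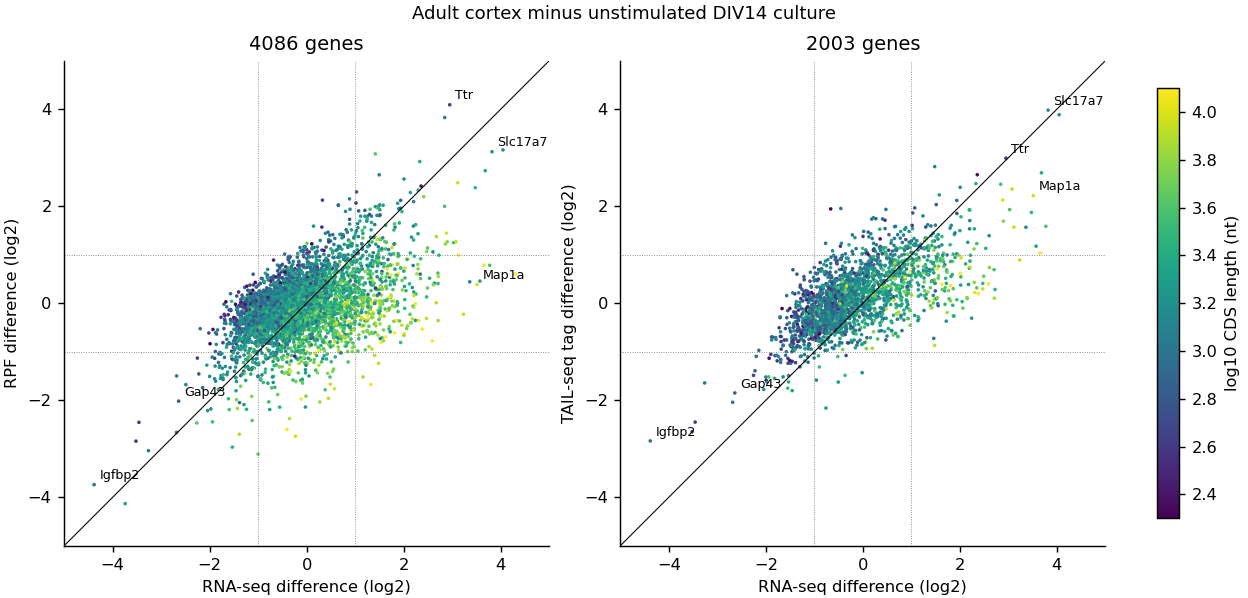
Log2 differences of adult cortex minus unstimulated DIV14 culture, RNA-seq on the x axes, with RPFs (4086 genes, left) and TAIL-seq tags (2003 genes, right) on the y axes; colour is log10 CDS length, dotted lines mark 2-fold and the solid line equal differences. Long CDSs such as Map1a lie below the line at the right and short ones above it at the left, while Slc17a7, Ttr, Gap43 and Igfbp2 differ in the same direction on both axes.

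The largest RNA-seq differences upward came from 2 kinds of gene. In 4 of the 10 the RPFs were also 2-fold higher. Slc1a2 had 2082 RPM in the cortex and 126 in the culture (93.8 to 152 over the 4 cultures) in RNA-seq, a difference of 4.05 (3.69 to 4.43), with 3.16 (3.09 to 3.24) in RPFs and 3.89 in tags. Slc17a7, which loads glutamate into the vesicles of cortical excitatory neurons, had 1501 RPM in the cortex and 106 in the culture (96 to 119 over the 4 cultures), a difference of 3.82 (3.43 to 4.24), with 3.12 (3.00 to 3.25) in RPFs and 3.98 in tags. Rasgrp1, an activator of Ras, and Ptk2b, a calcium-sensitive tyrosine kinase, differed by 3.68 and 3.48 in RNA-seq and by 2.73 and 2.38 in RPFs. Cortex levels of these 4 genes lay outside the culture range in RNA-seq and RPFs.

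In the other 6 the RPF difference was under 2-fold, while tags were 2-fold higher for all but Pclo (0.40 to 2.22). Pclo, a scaffold of the presynaptic active zone with a CDS of 15207 nt, had 2122 RNA-seq reads in the cortex and 32 in the culture, 1242 against 62.9 RPM (4.30, 3.80 to 4.85). Its RPFs were 862 RPM in the cortex and 567 in the culture (567 to 767 over the 4 cultures), a difference of 0.61 (0.54 to 0.67). The same held for Bsn, a partner of Pclo (3.66 in RNA-seq, 0.78 in RPFs), Map1a, a microtubule-binding protein (3.51 and 0.39), Syn1, a protein of the synaptic vesicle surface (3.57 and 0.46), Cyfip2, an actin regulator (3.77 and 0.78), and Tubb4a, a tubulin (3.36 and 0.44). The cultures also spread widely in RNA-seq for these genes. Pclo ranged from 62.9 to 261 RPM and Map1a from 202 to 803, with the glu/gly culture highest, while their RPFs ranged from 567 to 767 and from 2349 to 2959.9.

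The 10 largest RNA-seq differences downward were shared by all assays, with RPFs at -4.13 to -1.50 and tags at -3.37 to -1.64, and each lay under all 4 cultures in RNA-seq and RPFs. Igfbp2, a secreted binder of insulin-like growth factors, gave 92.9 RPM in the cortex and 1244 in the culture (618 to 1244 over the 4 cultures) in RPFs (-3.74, -3.86 to -3.63) and -4.38 (-4.71 to -4.07) in RNA-seq. Dpysl3, a collapsin response mediator of growing axons, gave 78.7 RPM in the cortex and 1381 in the culture (1118 to 1381 over the 4 cultures) (-4.13, -4.26 to -4.01). Nnat, an imprinted gene of developing neurons, gave 78.9 RPM in the cortex and 567 in the culture (435 to 567 over the 4 cultures) (-2.84), and Gap43, the growth-cone phosphoprotein, 266 RPM in the cortex and 1079 in the culture (766 to 1079 over the 4 cultures) (-2.02). Sparc, a matrix glycoprotein, was at 264 RPM in the cortex and 1669.9 in the culture (958 to 1669.9 over the 4 cultures) and Dbi, which binds acyl-CoA, at 214 RPM in the cortex and 1175 in the culture (695 to 1175 over the 4 cultures). The others were Zcchc12 (-3.04 in RPFs), Bzw2 (-1.50), Idh1, the cytosolic isocitrate dehydrogenase (-1.68), and Met, the receptor of hepatocyte growth factor (-2.47).

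A further 924 genes reached 10 RPM in the cortex only and 1038 in the culture only. Those leading the cortex side were chiefly myelin and microglia genes. Mag, Mbp and Mal, proteins of the myelin membrane, had 375, 374 and 162 reads in the cortex and none in the culture, which with a floor of 3 reads in the culture library puts them at least 37.2-fold, 37.1-fold and 16.1-fold higher. Ptgds, a prostaglandin synthase made by oligodendrocytes and the meninges, had 1348 against 5.99 RPM in RPFs, and Csf1r, the growth factor receptor of microglia, 232 against 4.84. Cntnap1, a protein of the junctions beside the node of Ranvier, differed by 4.76 in RNA-seq and by 1.45 in RPFs. Adamtsl4 stood apart. It had 750 RNA-seq reads in the cortex against none in the unstimulated culture, but 20 RPFs against 22 and 2 tags against 0, so that only the RNA-seq library showed it.

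Those leading the culture side are known from immature or reactive glia, smooth muscle and epithelia. C3, the central complement component, had 347 RNA-seq reads in the culture and 1 in the cortex, and its RPFs were 1173 RPM in the culture (327 to 1173 over the 4 cultures) against 1.6. Vim, an intermediate filament of immature and reactive astrocytes, had 47.9 RPM in the cortex and 1624 in the culture (835 to 1624 over the 4 cultures) in RPFs. Nes, the filament of neural progenitors, had 4.00 RPM in the cortex and 249 in the culture (209 to 286 over the 4 cultures), and Lcn2, an iron-carrier protein of reactive astrocytes, 1.2 RPM in the cortex and 407 in the culture (237 to 467 over the 4 cultures). Tagln, of smooth muscle, Lrp2, an endocytic receptor of epithelia, and Igfbp3, a binder of insulin-like growth factors, had 215, 262 and 233 RPM in RPFs in the culture and 3.2, 0.800 and 8.93 in the cortex. Icam1, an adhesion molecule induced in inflammation, had 25 reads and none, or at least 28-fold fewer in the cortex. The unstimulated culture was the highest of the 4 in RPFs for 6 of these 8 genes, all but Nes and Lcn2, and the lowest of the 4 still exceeded the cortex in RPFs for each of them.

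Requiring a 2-fold difference in RNA-seq, RPFs and tags at once, a rule set after the data were seen, kept 55 genes (2.75%) higher and 28 (1.4%) lower out of 2003. Of these, 33 and 18 were also 2-fold away from each of the 4 cultures in RNA-seq and RPFs, and in the adult hippocampus 38 and 23 were 2-fold away from the culture in RPFs in the same direction. The median CDS length of both sets (1467 and 1107 nt) was near that of all 2003 genes (1362 nt). Ttr, a carrier of thyroid hormone made by the choroid plexus, had the largest RPF difference, 936 RPM in the cortex and 54.9 in the culture (1.7 to 54.9 over the 4 cultures) (4.09, 3.91 to 4.29). Genes known from glia and secretion among the 55 were Enpp2 (2.92 in RPFs) and Selenop, the selenium carrier (2.65). Neuronal members included Camk2n1, an inhibitor of CaMKII (2.42), Snap25, a SNARE of vesicle release (2.12), Sv2b, a vesicle glycoprotein (2.02), Eno2, the neuronal enolase (2.00), Rasgrf1 (2.00), Faim2 (1.96) and Camk2a, the kinase of synaptic plasticity (1.06). Among the 28 lower were Dnmt3a, a de novo DNA methyltransferase, at 60.5 RPM in the cortex and 474 in the culture (405 to 478 over the 4 cultures), Dner, a Notch ligand of neurons (-1.80), Stmn2, which binds tubulin in growing neurites (-1.15), and Tubb2a, a tubulin (-1.47).

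Genes of mature neurons were higher in the cortex in every assay. Of 26 such genes, 18 passed the RNA-seq cutoff, of which 13 were 2-fold higher in RNA-seq and 10 in RPFs, and none was 2-fold lower. Their medians were 1.59, 1.09 and, over 16 genes, 1.36 in RNA-seq, RPFs and tags. Over all 26 genes, 25 had 20 RPFs or more in both libraries and 16 were 2-fold higher, against 6.95% higher and 9.99% lower of all 10448 genes at that depth. Nrgn, a calmodulin-binding protein of dendritic spines, had 1605 RPM in the cortex and 104 in the culture (70.8 to 117 over the 4 cultures) in RPFs. Snap25 had 4380.0 RPM in the cortex and 1006 in the culture (789.8 to 1013 over the 4 cultures), Camk2a 2932 RPM in the cortex and 1408 in the culture (1408 to 1632 over the 4 cultures) and Hpca, a calcium sensor, 942 RPM in the cortex and 284 in the culture (194 to 286 over the 4 cultures). Nefm, a neurofilament subunit that marks axon calibre, had 461 RPM in the cortex and 136 in the culture (136 to 192 over the 4 cultures).

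Release machinery, channels and receptors differed by family and by assay. Of 32 synaptic vesicle and release genes, 31 were found and 26 passed the cutoff and had medians of 1.08 in RNA-seq, 0.56 in RPFs and 1.03 in tags, with 14 genes 2-fold higher in RNA-seq and 5 in RPFs. Over all genes compared, 11.4% were 2-fold higher in RNA-seq and 4.89% in RPFs. Potassium channel genes had medians above 0 in all 3 assays. The 17 of 89 that passed had medians of 1.12, 0.92 and 0.94, and 8 were 2-fold higher and none lower in RPFs. Of the 57 with 20 RPFs or more in both libraries, 25 were 2-fold higher and 3 lower, beside 6.95% and 9.99% of all genes at that depth. Kcna2 and Kcna1, delayed rectifiers of the axon, had 143 RPM in the cortex and 39.4 in the culture (32 to 45.8 over the 4 cultures) and 134 RPM in the cortex and 61.6 in the culture (61.6 to 83.7 over the 4 cultures) in RPFs. Sodium and calcium channel genes, whose CDSs are long, had a median of 0.76 in RNA-seq but -0.13 in RPFs (19 of 39 genes). The 11 past the tag cutoff had a median of 0.74 in tags. For these 11, the RPF difference less the tag difference had a median of -0.33. Scn8a, the sodium channel of mature nodes and axon initial segments, differed in both (2.90 and 1.27), and Cacna1a, the P/Q-type calcium channel, in RNA-seq only (2.71 against -0.36).

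Among ionotropic glutamate receptor subunits, 10 of 18 passed, with medians of 0.99 in RNA-seq and -0.15 in RPFs. The 5 past the tag cutoff had a median of 0.81 in tags. For these 5, the RPF difference less the tag difference had a median of -0.17. Grin2a, the NMDA receptor subunit that rises with age, had 376 RPM in the cortex and 66.8 in the culture (66.8 to 103 over the 4 cultures) in RNA-seq and 135 RPM in the cortex and 61.1 in the culture (61.1 to 72.9 over the 4 cultures) in RPFs (1.14, 0.94 to 1.34). Grin2b, the subunit that dominates early, had 889.9 RPM in the cortex and 236 in the culture (219 to 537 over the 4 cultures) in RNA-seq but 461 RPM in the cortex and 594 in the culture (594 to 729 over the 4 cultures) in RPFs (-0.37, -0.44 to -0.29). In RPFs the 2 subunits therefore differed in opposite directions, and in RNA-seq both were higher in the cortex (2.49 and 1.92). Among GABA-A receptor subunits, 10 of 17 passed, with medians of 0.88 and 0.85. Gabrd, the subunit of receptors outside the synapse, had 132 RPM in the cortex and 34.4 in the culture (34.4 to 51.2 over the 4 cultures) in RPFs, whereas Gabra5, which is abundant early, had 48 RPM in the cortex and 84.6 in the culture (83.7 to 97.9 over the 4 cultures). The first lay above every culture and the second below every culture.

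Genes of immature neurons and growth cones were lower in the cortex. Of 22, 10 passed the RNA-seq cutoff, with medians of -1.22 in RNA-seq and -1.18 in RPFs, and -0.75 in the tags of 12. With 20 RPFs or more in both libraries, 12 of 18 were 2-fold lower in RPFs and none was higher. Of all genes at that depth, 9.99% were 2-fold lower and 6.95% higher. Dcx, which bundles microtubules in migrating neurons, had 13.2 RPM in the cortex and 198 in the culture (153 to 198 over the 4 cultures) in RPFs. Tubb3, the neuronal tubulin, had 533 RPM in the cortex and 1626 in the culture (1595 to 1709 over the 4 cultures), Tubb2b 57.6 RPM in the cortex and 686 in the culture (552 to 689 over the 4 cultures) and Tuba1a 98.1 RPM in the cortex and 436 in the culture (330.2 to 439 over the 4 cultures). Dpysl5 and Crmp1, relatives of Dpysl3, had 52.8 RPM in the cortex and 907 in the culture (878 to 949 over the 4 cultures) and 278 RPM in the cortex and 1270.4 in the culture (1130.3 to 1270.4 over the 4 cultures). Map1b, whose CDS is long, was 1.47 in RNA-seq, -0.66 in RPFs and 0.08 in tags, and was the 1 gene of the list 2-fold higher in RNA-seq. Cell cycle and replication genes summed to 335 RPM in RPFs in the cortex and 1069.8 in the culture (722 to 1069.8), with the D cyclins Ccnd1 at 64.9 RPM in the cortex and 371 in the culture (222 to 371 over the 4 cultures) and Ccnd2 at 82.9 RPM in the cortex and 341 in the culture (281 to 370.2 over the 4 cultures). Tags of Ccnd2 went the other way (1.12), those of Ccnd1 did not (-2.31).

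Sterol synthesis genes were lower in the cortex almost throughout. SREBP-2 switches these genes on when membranes are short of cholesterol, and in the brain astrocytes and, in myelination, oligodendrocytes make most of it. All 24 genes summed to 1945 RPM in RPFs in the cortex, 5989 in the culture (4041 to 7376) and 1449 in the adult hippocampus. Of the 24, 22 lay under all 4 cultures in RPFs, 15 of the 23 with 20 RPFs or more in both were 2-fold lower, and none was higher. At that depth 9.99% of all genes were 2-fold lower and 6.95% higher. Hmgcs1, an early synthase of the pathway, had 556 RPM in the cortex and 2521 in the culture (1438 to 3235 over the 4 cultures) in RPFs (-2.18, -2.23 to -2.13). Sqle, the squalene epoxidase, had 69.2 RPM in the cortex and 321 in the culture (203 to 389 over the 4 cultures). Both were also 2-fold lower in RNA-seq (-1.98 and -2.04) and in tags (-1.63 and -1.78). Ebp was the 1 gene of the list above 0 in RPFs (0.37).

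The 250 bases before the RefSeq start sites of the sterol synthesis genes were searched on both strands for CCAAT and TCACNCCAC. CCAAT is the NF-Y box that SREBP sites often neighbour, and TCACNCCAC is the core of a sterol response element. A window was at hand for 17 of the 24 genes. CCAAT was in 16 of the 17, all but Acat2, and in 37.5% of all 27025 genes with a window. TCACNCCAC was in 1 of the 17, Hmgcs1, and in 1.22% of all. A match is only these letters, not a shown site, and other sites that bind SREBP do not have them. All genes with a window were not matched to the list for expression. A link of these letters to the differences was not tested. The last 150 bases before the start are given for 4 genes of the list, from GRCm38.p6 and 5′ to 3′ on the strand of the gene, with CCAAT or its complement ATTGG and TCACNCCAC in capitals. Their RPF differences were -2.18, -1.86, -1.71 and -1.01.
Hmgcs1, chr13:119690201-119690350, plus strand: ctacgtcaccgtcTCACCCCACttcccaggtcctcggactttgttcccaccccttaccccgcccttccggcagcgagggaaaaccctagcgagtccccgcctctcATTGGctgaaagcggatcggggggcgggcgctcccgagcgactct
Nsdhl, chrX:72918371-72918520, plus strand: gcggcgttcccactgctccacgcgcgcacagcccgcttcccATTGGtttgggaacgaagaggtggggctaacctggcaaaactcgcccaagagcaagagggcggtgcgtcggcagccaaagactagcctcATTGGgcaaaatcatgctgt
Mvd, chr8:122443423-122443572, minus strand: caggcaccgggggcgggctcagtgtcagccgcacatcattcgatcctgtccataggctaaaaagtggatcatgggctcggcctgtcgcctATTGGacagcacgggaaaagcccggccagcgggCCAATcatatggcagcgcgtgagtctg
Cyp51, chr5:4104698-4104847, minus strand: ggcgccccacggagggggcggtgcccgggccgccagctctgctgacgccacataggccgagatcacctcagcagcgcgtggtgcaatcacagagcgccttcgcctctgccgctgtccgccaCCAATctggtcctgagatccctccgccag

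In summed RPFs, immediate-early genes were higher in the cortex than in the unstimulated culture and within the range of the 4 cultures, though single genes were not always so. The 22 immediate-early genes summed to 3285 RPM in RPFs in the cortex, 1229.8 in the unstimulated culture and up to 6895 in the other cultures, 2 of which had been stimulated. In RPFs 14 of the 22, all with 20 RPFs or more in both libraries, were 2-fold higher than in the unstimulated culture, beside 6.95% of all genes at that depth, and 5 were above all 4 cultures. Arc, which removes AMPA receptors from synapses, had 366 RPM in the cortex and 45.9 in the culture (45.9 to 866 over the 4 cultures) in RPFs, and Fos, an AP-1 subunit, 123 RPM in the cortex and 42.9 in the culture (42.9 to 1151 over the 4 cultures). Homer1, a postsynaptic scaffold with an activity-induced isoform, had 171 RPM in the cortex and 60.9 in the culture (46.9 to 71.1 over the 4 cultures) and Nptx2, a secreted synaptic pentraxin, 133 RPM in the cortex and 28.1 in the culture (21.7 to 55.6 over the 4 cultures), both above all 4 cultures. Among granins and neuropeptides, Nptx1 (673 RPM against 63.8 to 96.6 over the 4 cultures) and Pcsk1, a prohormone convertase (163 RPM against 39 to 75.9 over the 4 cultures), were higher, while Vgf, a secreted activity-induced protein, was under all 4 cultures (888 RPM against 919 to 1286). Among glycolysis genes 5 of the 13 at that depth were 2-fold higher in RPFs and none lower, beside the same 6.95%, namely Eno2, Aldoc, Aldoa, Tpi1 and Pfkl (2.00, 1.34, 1.16, 1.07 and 1.67).

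Several gene groups that every cell uses differed between RNA-seq and RPFs, as the glutamate receptor and sodium and calcium channel genes did. Of 84 nuclear-encoded subunits of oxidative phosphorylation, which have short CDSs, 60 passed the RNA-seq cutoff. Their median was -0.98 in RNA-seq, where 29 were 2-fold lower and none higher, but -0.02 in RPFs, where none was called, and -0.07 in the tags of 71. Their TE was accordingly 2-fold higher in the cortex for 28 of 60. Over all genes 13.1% were 2-fold lower in RNA-seq and 7.49% 2-fold higher in TE. Among the 822 genes with CDSs of up to 1026 nt, these were 238 and 204 genes. With tags in place of RNA-seq reads, TE of the oxidative phosphorylation genes was 2-fold higher for 2 of 69 and lower for 1. Proteasome subunits had -1.22 in RNA-seq, -0.31 in RPFs and -0.30 in tags, mitochondrial ribosomal proteins -1.02, -0.14 and -0.07, and SR and hnRNP splicing factors -0.97, -0.31 and -0.33. Of 84 cytosolic ribosomal protein genes, 11 passed the RNA-seq cutoff, and since many have near-identical pseudogenes their counts are uncertain. They had medians of -1.19, -0.53 and, over 32 genes, -0.07. Postsynaptic density scaffolds, with long CDSs, showed the reverse at 1.01, -0.12 and 0.29.

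The RNA-seq difference rose with the length of the CDS. In 5 bins of equal size, medians were -0.67, -0.43, -0.28, -0.02 and 0.53 from CDSs of up to 1026 nt to those of 3249 nt and more, with Spearman's rho at 0.49 over 4087 genes. The shortest bin held 20 genes 2-fold higher and 238 lower, the longest 245 higher and 26 lower. RPFs had medians of -0.00, -0.02, -0.09, -0.07 and -0.23 in the same bins (rho -0.14). Tags of the genes past both cutoffs had -0.08, 0.04, 0.13, 0.18 and 0.32 (rho 0.20 over 2004 genes), against -0.68 to 0.86 in RNA-seq for the same genes. The climb with length was thus smaller in tags and absent from RPFs, which fell. Against the other cultures RPFs fell more steeply with length (rho -0.30 for GFP, -0.26 for BDNF and -0.29 for glu/gly), and between the GFP and the unstimulated culture they rose with it (0.37). The longest bin took 31.7% of the RNA-seq reads of the compared genes in the cortex and 20.7% in the culture, and 19.4% and 22.8% of the RPFs.

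The RNA-seq trend was seen whichever culture the cortex was set against. Spearman's rho was 0.45 against the GFP culture, 0.46 against the BDNF culture and 0.42 against the glu/gly culture, and 0.11 between the GFP and the unstimulated culture. The adult hippocampus, whose RNA was selected for poly(A), gave 0.31 against the unstimulated culture, with medians of -0.70 in the shortest and 0.20 in the longest bin, and cortex against hippocampus gave 0.14. RNA-seq differences followed the length of the 3′ UTR (rho 0.34) and 5′ UTR (0.22) less closely than that of the CDS, and the GC content of the CDS hardly at all (0.05).

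**Figure D3:**
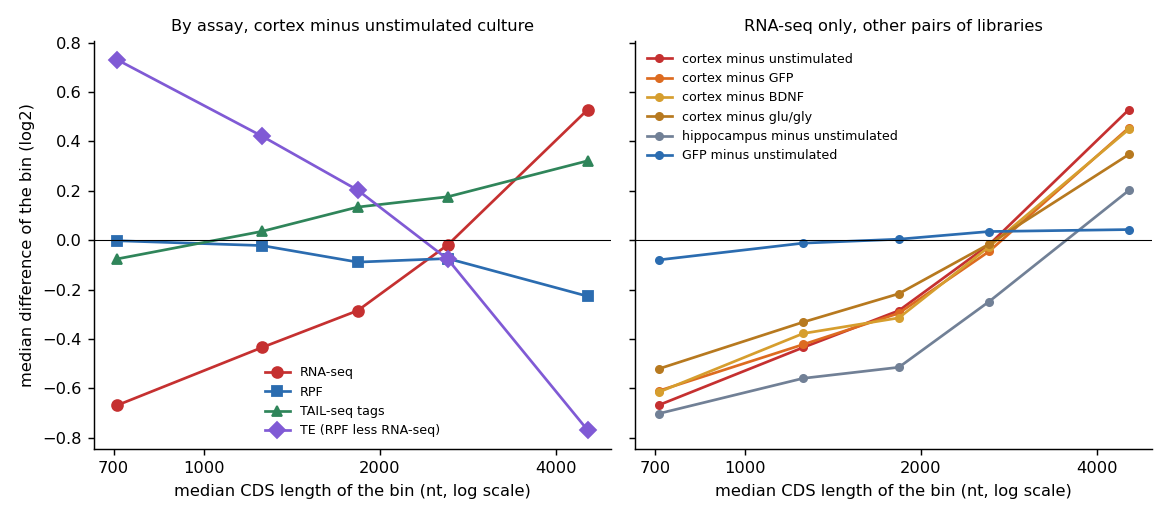
Median log2 difference in 5 bins of CDS length (815 to 822 genes a bin), plotted at each bin's median length on a log axis; left, cortex minus unstimulated culture by assay, right, RNA-seq for other pairs of libraries. RNA-seq climbs from -0.67 to 0.53 while RPFs stay between -0.23 and 0.00, and the same climb is seen against each culture but not between the GFP and the unstimulated culture (-0.08 to 0.04).

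Among the 10 longest CDSs, 6 were 2-fold higher in RNA-seq and 1 lower, and in RPFs none was higher and 3 were lower. Ryr2, the calcium release channel of the endoplasmic reticulum, had 1189 RPM in the cortex and 136 in the culture (136 to 369 over the 4 cultures) in RNA-seq and 503 RPM in the cortex and 253 in the culture (253 to 313 over the 4 cultures) in RPFs. Ubr4, a ubiquitin ligase, had 903 RPM in the cortex and 224 in the culture (194 to 464 over the 4 cultures) in RNA-seq and 450.5 RPM in the cortex and 697 in the culture (697 to 909 over the 4 cultures) in RPFs, higher in one assay and lower in the other. Dst, a linker of the cytoskeleton, and Mdn1, a ribosome assembly factor, were at 1.19 and 1.13 in RNA-seq and at -0.45 and -0.48 in RPFs. Pclo and 4932438A13Rik were the other 2 called. Length alone did not fix the sign, since Macf1 was at 0.00, Syne2 at -0.38, Fat4, a protocadherin, at -0.41 and Ahnak at -1.10 in RNA-seq, with -1.25, -0.32, -2.60 and -1.36 in RPFs.

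TE as RPFs over RNA-seq took over the trend with its sign turned. It was 2-fold higher in the cortex for 306 genes (7.49%) and lower for 471 (11.5%) of 4086, against 0.537% and 0.793% between the GFP and the unstimulated culture. Of the 306, 204 were in the shortest bin, and of the 471, 323 were in the longest. The median TE difference was 0.17 and rho with CDS length was -0.65. With tags in place of RNA-seq reads, 32 of 2635 genes were 2-fold higher and 103 lower.

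Among genes with 50 reads and 50 RPFs or more in each library, the 10 highest and 10 lowest TE differences were short and long CDSs, except for Inpp5f. The 10 highest were 1.77 (1.33 to 2.21) for Ubxn1, a cofactor of the p97 ATPase, down to 1.59 (1.18 to 1.99) for Cox7b, a subunit of cytochrome c oxidase, and included Uqcr10 and Ndufb2 of the respiratory chain (1.70 and 1.63), Rplp0 of the ribosomal stalk (1.67), Ubb, a polyubiquitin gene (1.61), Ccdc124 (1.70), Cfdp1 (1.69), Aurkaip1 (1.59) and Inpp5f, a phosphoinositide phosphatase (1.59). Inpp5f has a CDS of 3399 nt, in the longest bin, while those of the other 9 are 195 to 954 nt. Their RPF differences were all within -0.53 to 0.60 and their RNA-seq differences were -2.20 to -1.10. With tags, 1 of the 10 stayed 2-fold higher, Inpp5f, and Aurkaip1 and Ccdc124 lay below 0 (-0.54 and -0.27, the second from under 50 tags a library). Rplp0 has many pseudogenes and its counts are uncertain.

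At the same depth, the 10 lowest ran from -3.37 (-3.67 to -3.07) for Hectd4, a ubiquitin ligase, to -2.58 (-2.98 to -2.18) for Eif4g3, a scaffold of translation initiation. They were Map1a (-3.13), Cyfip2 (-2.99), Lrp1, an endocytic receptor (-2.91), Fry (-2.78), Tenm2, a synaptic adhesion protein (-2.72), Wdfy3 of selective autophagy (-2.67), Srrm2, a splicing scaffold (-2.66), and Ubr4 (-2.64), with CDSs of 3762 to 15543 nt. Srrm2 may serve to show what such a value holds. It had 1156 RNA-seq reads in the cortex and 54 in the culture, 676 against 106 RPM, while its RPFs were 732 and 728. All 10 stayed below 0 with tags (-1.83 to -0.37) and 4 stayed 2-fold lower.

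Genes whose TE differed 2-fold by both denominators, a rule set after the data were seen, were 8 higher (0.399%) and 37 lower (1.85%) of 2003. Their median CDS lengths, 931.5 and 3522 nt against 1362 nt for all 2003, still followed the trend. Both denominators share the RPF counts. Inpp5f had 173 against 505 RPM in RNA-seq and 105 against 354 RPM in tags in cortex and culture but 54.9 against 53.5 RPM in RPFs, a TE difference of 1.59 with RNA-seq and 1.79 with tags. Azin1, an antizyme inhibitor of polyamine control, had 1.50 (1.16 to 1.84) and 1.25 (0.89 to 1.61), and Eif1b, a relative of the start-codon factor eIF1, 1.14 and 1.09. On the lower side, Kif5a, a motor of axonal transport, had 2869 against 627 RPM in RNA-seq and 1819 against 479 RPM in tags but 651 against 679.9 RPM in RPFs, or -2.26 (-2.43 to -2.08) and -1.99 (-2.16 to -1.82). Purb, a single-strand nucleic acid binder with a CDS of 975 nt, had -1.71 and -2.10, Rapgef4, a cAMP sensor, -1.95 and -1.71, and Dpysl2, a tubulin-binding protein of axons, -1.28 and -1.60. TE by RNA-seq was 2-fold away from each of the 4 cultures for 3 of the 8 (Inpp5f, Azin1 and Eif1b) and 25 of the 37.

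Mean poly(A) tails were shorter in the cortex than in the unstimulated culture for 93.5% of 2663 genes, with a median difference of -12.4 nt. No gene was 20 nt longer (0%) and 478 (17.9%) were 20 nt shorter. The size of the difference depended on the culture. Over the 1725 genes with 50 tags in all 5 libraries, median tails were 99.2 nt in the cortex, 111 in the unstimulated, 111 in the BDNF, 107 in the glu/gly and 102 in the GFP culture. The cortex was thus the shortest of the 5, by a median of -3.33 nt from the GFP culture, and the cultures differed among themselves by as much. Between the GFP and the unstimulated culture, 0% of 1856 genes were 20 nt longer and 5.39% 20 nt shorter. Spiked-in standards were read alongside, and those with many tags did not differ in this way. Of 7 with 100 tags or more in both libraries, differences were -3.38 to 7.21 nt with a median of -0.97. The -3.38 nt was of STD13, whose made length was not at hand. The 2 standards made with tails of 100 nt read 108 against 108 nt and 104 against 105 nt. Standards with fewer tags all read shorter in the cortex. Those of them with 50 tags or more in both read 76.3 against 77.1 and 61.2 against 66.5 nt (made with 50 nt), and 160 against 175 nt (made with 250 nt). The cause was not tested.

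**Figure D4:**
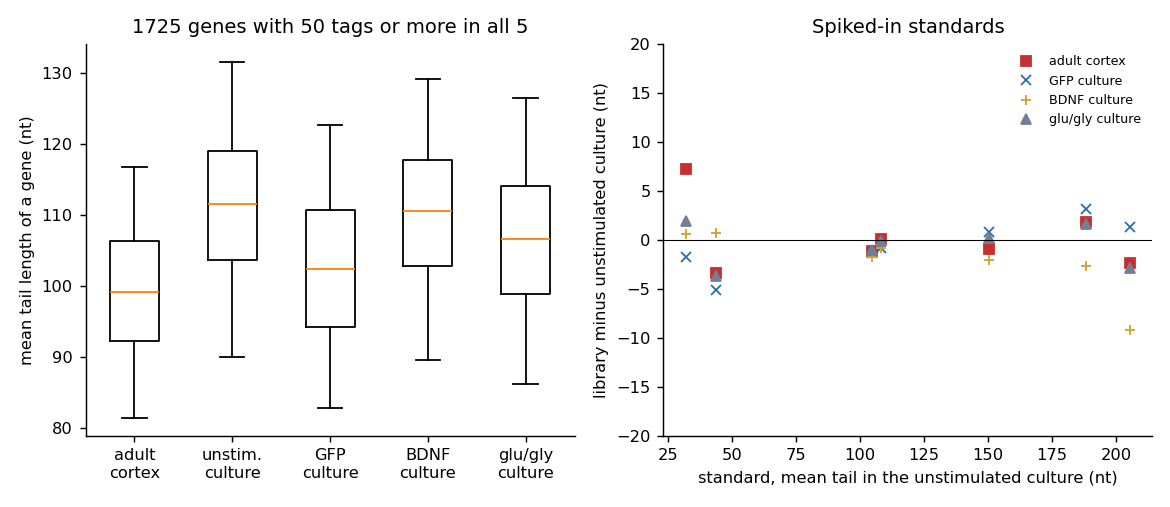
Left, mean tail length per gene in nt for 1725 genes with 50 tags or more in each of 5 libraries (line median, box quartiles, whiskers the 5th to 95th percentile); right, mean tail of 7 spiked-in standards in each library minus that in the unstimulated culture, in nt. Medians run from 99.2 nt in the cortex to 111 nt in the unstimulated culture, with the GFP culture at 102 nt, while standards near 100 nt differ by about 1 nt.

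The largest tail differences included transcripts that also set the GFP culture apart. Npy, a peptide of inhibitory neurons, had mean tails of 126 nt in the cortex and 171 in the unstimulated culture, but 126 in the GFP culture. Of the 10 genes with the largest shortening among those with 100 tags or more in both libraries, the other 9 lay outside the range of the 4 cultures. Cds2, an enzyme of phospholipid synthesis, had 77.6 nt against 114 (98.3 to 114 over the 4 cultures), Pfdn2, a prefoldin chaperone subunit, 68.6 against 100 (92.6 to 107), and Dync1h1, the dynein heavy chain, 98.8 against 131 (101 to 136). Elavl3, Pcdh10, Impact, Nbea, Rragd and Nrsn1 differed by -29 to -31.7 nt. At the other end of the same genes, Ttr (117 against 109 nt), Gabarap, an autophagy protein (93.9 against 86.3), Sfr1, Psma2, Efhd2, Mbnl2, Cryab, Nnat, Atp5e and Eif4g3 had tails 4.44 to 7.81 nt longer in the cortex than in the unstimulated culture. Of these 10, 6 lay outside the range of the 4 cultures. Their differences ran from -13 to 22.8 nt against the GFP culture. They ran from -9.1 to 15.3 nt against the BDNF culture and from -1.8 to 9.59 nt against the glu/gly culture. Against each of the 4 cultures, 33 of 2663 genes (1.24%) were 20 nt shorter in the cortex and none longer, whatever their number of tags in the other 3 cultures. Some had few tags there, such as Htt with 8 in the GFP culture. Examples, chosen after the values were seen, are Scn8a with 104 against 125 to 143, Rbfox2, a splicing factor, with 103 against 130 to 133, and Sf3b1, a core splicing factor, with 83.9 against 107 to 113.

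Against the unstimulated culture, the median difference was below 0 in every list with 6 genes or more, as it was over all 2663 genes (-12.4 nt). List medians ran from -21.8 nt for sodium and calcium channel genes (11 genes) and -19.3 for inhibitory neuron genes (8) through -16.3 for release genes (21) and -14.5 for ribosomal protein genes (32) to -10.2 for oxidative phosphorylation (71) and -6.39 for sterol synthesis (6). Against the GFP culture this did not hold throughout. The median tail of the list was longer in the cortex for sterol synthesis (106 against 102 nt), glycolysis (103 against 101), GABA-A receptor subunits (104 against 102), granins and neuropeptides (101 against 99.8) and genes of mature neurons (108.7 against 108.3). By CDS length, against the unstimulated culture, the medians of the 5 bins were -10.6, -13, -13, -15 and -16.3 nt (rho -0.23 over 2654 genes). Ribosomal protein mRNAs had short tails in both, with list medians of 83.1 and 101 nt. Files gave a mean and a median but no spread per gene, so no error could be set beside a tail length.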

How the data were processed

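RNA-seq, RPF and TAIL-seq files of adult cortex and of DIV14 cultures were used as the authors deposited them. RNA-seq reads and RPFs had been aligned to mm10, and the authors counted them over each gene's ORF, with 50 nt at its start left out (STAR 2.4.2 and bedtools, per the submitters' processing notes), and the deposited counts were the main values. The authors' RPM values served for the cutoff of 10 RPM. Deposited log2 TE values were used as an alternative only. TAIL-seq tags were deposited as counts per gene with a mean and a median tail length in nt. Other columns of the combined table and 2 libraries with contradictory labels were not used.

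Groups came from the labels. Counts were scaled to the reads, RPFs or tags on genes, and log2 ratios were given with exact 95% Clopper-Pearson intervals (TE from Poisson errors), which cover counting error only. With 1 library per group no test was made. Calculations used Python 3.11.15, pandas 2.3.3, NumPy 2.4.6 and SciPy 1.17.1 and were tested on simulated data. A fold against 0 counts used a floor of 3 counts in that library.

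Named by rule were the 10 highest and 10 lowest RNA-seq, TE (50 reads and 50 RPFs in each library) and tail differences (100 tags), the 8 genes on each side present mainly in 1 group, the 10 longest CDSs, and up to 4 members of a list plus defining markers. Other genes named were chosen after their values were seen, and some genes that the rule takes are not reported here. The members and lists were chosen with earlier results of these data known. Alternatives were other scalings, cutoffs, cultures and RNA denominators, adult hippocampus and removal of the length trend by a running median over 401 genes.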

Additional observations from a re-analysis of the deposited data

How the results depend on the processing

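No paired analysis was possible because each group had 1 library per assay and no result came from a test, and for the same reason no replicate could be left out. Of the gene values recomputed, 1467 stayed within their counting interval (10 nt for tails), 492 did not and 16 changed sign. Against the 535 genes lower in RNA-seq, the authors' RPM scaling gave 340 and median scaling 293, and median scaling gave 173 genes higher in TE in place of 306. A cutoff of 30 RPM gave 129 higher and 118 lower in RNA-seq, 67 and 77 in RPFs and 54 and 144 in TE, from fewer genes. Without a cutoff there were 1875 and 3083, 1200 and 1518, and 2236 and 1663, from more genes of low count. With adult hippocampus in place of cortex 1015 genes were lower in RNA-seq, 333 higher and 692 lower in RPFs and 799 higher in TE. Tags in place of RNA-seq gave 249 higher and 87 lower, and 32 and 103 in TE. With the CDS-length trend subtracted 303 were higher in RNA-seq, and 109 higher and 224 lower in TE. Against each of the 4 cultures, chosen after seeing the data, 221 and 197 remained in RNA-seq, 124 higher in RPFs, 120 and 240 in TE, and 33 shorter tails. Tails 20 nt shorter numbered 190 with 100 tags and 63 with 200 tags. Relative to the median of all genes 28 were longer and 26 shorter. Against the GFP culture 4 were longer and 44 shorter, and, both chosen after seeing the data, 2 and 181 against the glu/gly culture and 4 and 803 by median tail. Spearman's rho of RNA-seq with CDS length was 0.35 without a cutoff, 0.31 for hippocampus, 0.20 for tags and -0.14 for RPFs.

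Values that changed sign with tags in place of RNA-seq were TE of Ptk2b (0.51), Dbi (-0.0048) and Aurkaip1 (-0.54), and the RNA difference of Ubxn1 (0.16), Ndufb2 (0.19), Aurkaip1 (0.69), Tenm2 (-0.87), Eif4g3 (-0.10) and Atp5e (0.22). With hippocampus they were TE of Sfr1 (-0.24) and Grin2a (0.32), RNA of Pcdh10 (-0.24), and RNA (0.53) and RPFs (0.58) of Gfap. With the length trend subtracted they were RNA of Dst (-0.015) and Mdn1 (-0.083). The cause was not tested. Depth limited the RNA-seq of the culture most, where 10 RPM was 24 reads.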

Other observations

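Blood and matrix genes add to the picture of what each lysate held. Hbb-b1, a beta globin of red blood cells, had 705 TAIL-seq tags in the cortex and 4 in the culture, and Hbb-b2 192 and 0, while both had 0 RNA-seq reads and 0 RPFs in both libraries. The 2 genes are near-identical copies and their counts are uncertain.

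At 20 RPFs or more in both libraries, 9.99% of all genes were 2-fold lower in the cortex and 6.95% higher. Of the 20 collagen genes at that depth, 11 were 2-fold lower and 2 higher. The higher were Col1a1 (289.9 against 34.4 RPM in RPFs) and Col1a2 (232 against 27.4), chains of type I collagen. Among the lower were Col4a1 and Col4a2 of basement membranes (56.4 against 215 and 62.3 against 175), Col18a1 (9.6 against 219), Col4a5 (16.8 against 182) and Col5a2, a fibrillar collagen (11.7 against 144). Cortex values of these 5 lay under all 4 cultures.

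Granin and neuropeptide genes summed to 6833 RPM in RPFs in the cortex and 4032 in the culture (4032 to 5064), with 13 of 18 above all 4 cultures and 2 below.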
